A study of Homo sapiens with 6 samples.

Results

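The RHOH locus is a stretch of human chromosome 4 around the gene RHOH, and the members described here are the peaks of acetylated histone H3 lysine 27 (H3K27ac) that overlap it. They were chosen by position: every deposited peak overlapping chr4:40150000-40330000 on hg19, in which the rule places RHOH on the plus strand from 40198 to 40247 kb. This gave 284 peaks of 1440888 in all 6 lists, 42 in parental control, 47 in parental 2 h, 48 in parental 4 h, 50 in knockout control, 49 in knockout 2 h and 48 in knockout 4 h. This stretch was picked with covered lengths and ranks of these lists in view, so those values are given as a description and with no test.

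All 6 libraries are ChIP-seq of H3K27ac from CCRF-CEM, a human leukemia cell line that its labels call T lymphoblast. Parental control, labelled wild-type, received the vehicle DMSO, and parental 2 h and parental 4 h received 100 nM camptothecin, an inhibitor of topoisomerase 1, for 2 h and 4 h. Knockout control, knockout 2 h and knockout 4 h are cells with a knockout of SLFN11, a Schlafen family protein that blocks stressed replication forks and makes cells more sensitive to camptothecin, under the same 3 treatments. The extract protocol in the labels names a treatment of 4 h only. Whether the knockout cells are 1 clone is not given in the sources used here, the knockout label and the T cell identity were not checked, and with 1 library per group no difference has a replicate check.

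RHOH is a protein of blood cells that binds GTP and does not hydrolyse it. In T cells it is known as an adaptor in T cell receptor signalling that helps bring the kinase ZAP70 to the receptor. H3K27ac marks active promoters and enhancers, and long runs of marked enhancers are common at genes of a cell's own lineage. Between named neighbours, RHOH lies after N4BP2 and before LINC02265 and CHRNA9 in the RefSeq gene table.

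RefSeq lists 4 starts of RHOH on the plus strand of GRCh38.p14, and the last lies 5951 bases after the first. The 250 bases before starts 1 and 3, counted along the strand, are shown because H3K27ac around the start of the gene was the strongest marked stretch of the locus. Capitals mark matches to AGGAAG, the core of ETS family sites, on either strand.
RHOH start 1, chr4:40190830-40191079, plus strand: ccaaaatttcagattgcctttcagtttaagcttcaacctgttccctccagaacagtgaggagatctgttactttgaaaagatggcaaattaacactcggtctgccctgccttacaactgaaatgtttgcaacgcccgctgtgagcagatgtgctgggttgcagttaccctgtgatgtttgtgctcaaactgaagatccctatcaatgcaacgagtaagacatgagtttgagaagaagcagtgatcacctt
RHOH start 3, chr4:40193413-40193662, plus strand: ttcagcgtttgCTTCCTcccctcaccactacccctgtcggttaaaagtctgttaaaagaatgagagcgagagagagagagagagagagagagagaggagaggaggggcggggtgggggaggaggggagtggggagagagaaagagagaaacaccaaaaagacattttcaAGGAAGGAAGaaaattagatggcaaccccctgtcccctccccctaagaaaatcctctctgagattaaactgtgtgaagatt
The window of start 3 held 3 AGGAAG matches, of which 2 overlap, and 28.7% of 35116 RefSeq promoter windows of 250 bases held at least 1. CAGCTG, an E-box, matched once before start 2 and is in 14.0% of these windows. The RUNX core TGTGGT had no match in the 4 windows and is in 11.0% of all. The same holds for the GATA factor core AGATAA at 9.17%, the AP-1 core TGACTCA at 4.20% and the promoter box TATAAA at 10.7%. These letters come from another build than the peaks and were not placed against them.

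Peaks were called per library and the lists differ in length, so each was limited to its 30000 peaks of smallest p on chromosomes 1 to 22 and X, here its top peaks. These included 27, 29 and 31 peaks of the locus in the parental libraries and 24, 24 and 16 in the knockout libraries, each in the order control, 2 h, 4 h, which is kept throughout. Read depth is not in the files. A relative measure, the background pileup solved from the most frequent fold and p of each list, was 0.603, 0.506 and 0.570 fragments per base in the parental libraries (control, 2 h, 4 h), and 0.699, 0.715 and 0.168 in the knockout libraries (same order). Knockout 4 h was therefore far thinner than the others, and its differences cannot be told apart from depth.

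The top peaks covered 38856 bp of the 180 kb in parental control, 42845 bp in parental 2 h and 47400 bp in parental 4 h. They covered 34354 bp in knockout control, 39967 bp in knockout 2 h and 19339 bp in knockout 4 h. Of all 180 kb stretches with any cover, on a grid aligned to the locus, 2, 1 and 1 held as much in the parental libraries and 5, 2 and 13 in the knockout libraries, the locus itself included, with a median stretch between 1327.5 and 2086 bp. RHOH thus lay in 1 of the most densely marked stretches of each list, which is a value that chose it. Outside the locus, the nearest top peak after its end in parental control was chr4:40350174-40351639 at rank 17819. The nearest before its start was chr4:40057464-40059341 at rank 550, 90659 bp away. In parental 2 h and 4 h the nearest before the start lay 6383 and 6363 bp away. In the knockout libraries it lay 90638, 90656 and 12458 bp away.

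The peak's fold, the authors' ratio over the local background, and its p were also solved together for the pileup behind them, which was divided by the background pileup of the library. This relative pileup was chosen as a measure after seeing the data. It is approximate, since MACS2 gives a broad peak's values as means over the peak. A region has the value of its strongest peak in each library, and the extent of that peak can differ between libraries. Some weak peaks allow 2 solutions and were given no value: among top peaks this touched 4 of the 16 locus peaks of knockout 4 h and none of the other libraries.

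The strongest stretch was the start of the gene. Between 40190064 and 40206990, 6 regions were among the top peaks of all 6 libraries, each called as 1 peak in the 5 libraries other than knockout 4 h. Across those 5, their first bases spread over 10 to 53 bp, except 305 bp for chr4:40190064-40191581, and their last bases over 10 to 65 bp. The region chr4:40194250-40198233 ends at the start of RHOH as the rule gives it, but its knockout 4 h peak ended earlier, at 40196392. The region chr4:40199737-40200401, inside the gene, had the highest relative pileup of the locus in all 6 libraries. It reached 209.7, 200.8 and 173.4 times the genome background in the parental libraries, and 177.1, 186.4 and 217.6 in the knockout libraries. Parental and knockout values overlapped there. Over the 6 regions the parental mean was 1.05 to 1.33 times the mean of knockout control and 2 h. At 3 of them, from 40201561 on, the parental values lay above both knockout values. Over all sites the median ratio of these means was 1.12, and the share of sites so separated with no fold limit is not given here. The fold of chr4:40199737-40200401 lay only between 2.78 and 3.63, and its local background was 55.6 to 74.5 times that of the genome.

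The region chr4:40266535-40267798, past the end of the gene, had the opposite makeup. Its fold was the highest of the locus in all 6 libraries, between 5.87 and 6.74. Its relative pileup was 106.8, 107.4 and 93.4 in the parental libraries, and 91.4, 90.6 and 95.5 in the knockout libraries. Fold and pileup therefore ordered the peaks of the locus differently.

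**Figure D1:**
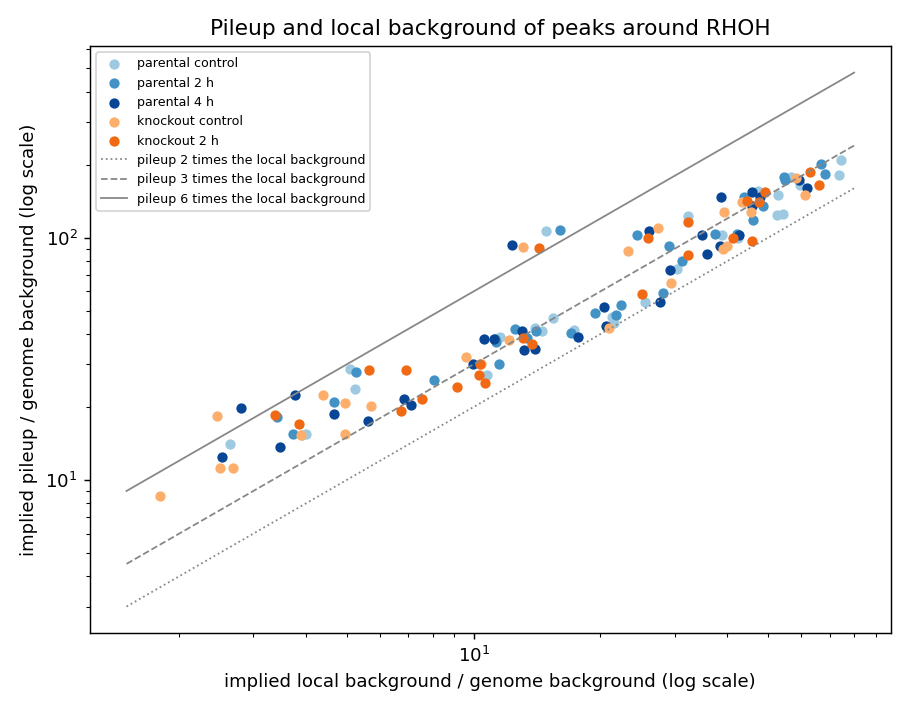
Implied pileup against implied local background, both over the genome background of the library and on log scales, for top peaks of the locus in the 5 libraries other than knockout 4 h. Lines mark pileups of 2, 3 and 6 times the local background, and the few points near the upper line at a pileup of about 100 are the region chr4:40266535-40267798.

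A second dense cluster lay at the far end of the locus, from 40302915 to 40327450, with 6 regions of which 5 were among the top peaks of all 6. It covered 10299, 11852 and 10957 bp in the parental libraries, and 10264, 10569 and 7777 bp in the knockout libraries. Its longest region, chr4:40311194-40315957, had a relative pileup of 123.6, 103.5 and 92.5 in the parental libraries and 89.8, 99.6 and 80.6 in the knockout libraries. The genotypes overlapped at this region and at 3 others of the cluster. At chr4:40302915-40303863 and chr4:40308083-40309365 the parental values lay above both knockout control and 2 h, with means 1.18 and 1.22 times theirs. Over all sites the median ratio of parental to knockout means was 1.12. No gene was placed under this cluster, for lack of an hg19 annotation in the sources used.

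**Figure D2:**
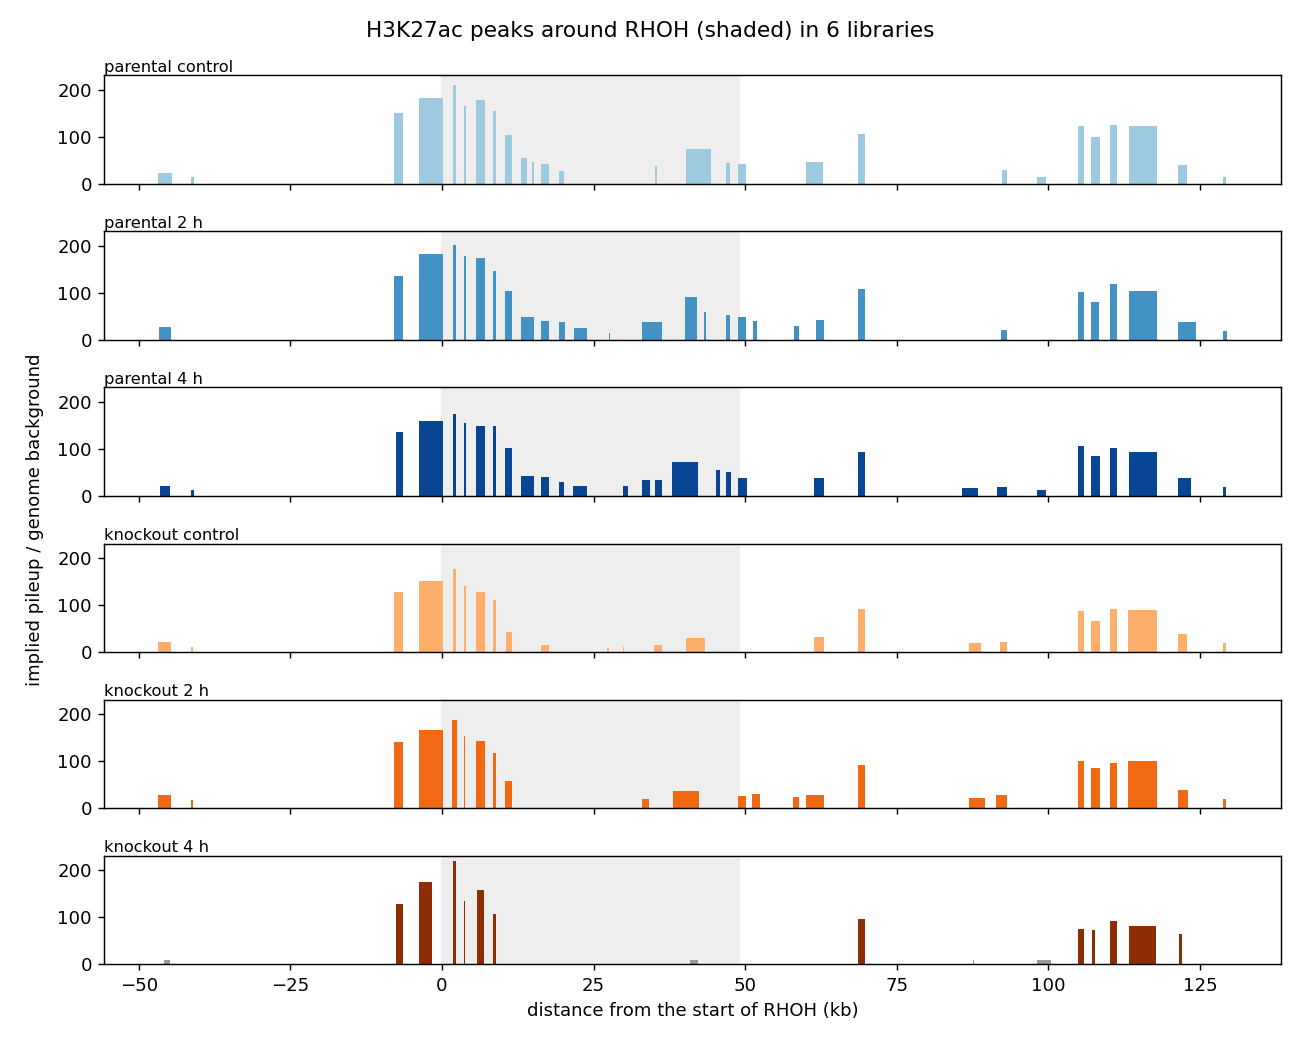
Top peaks of the 6 libraries by distance from the start of RHOH in kb, with the gene shaded and bar height giving implied pileup over the genome background. Grey stubs are knockout 4 h peaks with 2 solutions, whose height has no meaning; the start of the gene stands at 100 or more in each library, and past 10 kb the bars inside the gene are lower in knockout control and 2 h than parental bars at the same place.

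Inside the gene, past its start, 4 regions had lower relative pileup in knockout control and 2 h than in the parental libraries. At chr4:40208441-40209601 the relative pileup was 102.7, 103.3 and 102.3 in the parental libraries, and 42.4 and 58.6 in knockout control and 2 h. At chr4:40214331-40215670 it was 42.4, 41.1 and 41.0 in the parental libraries against 15.3 and 8.97. The 3 parental values stood close together and above both knockout values at each region. By fold, the parental values also lay above both at chr4:40208441-40209601, with 2.57, 2.67 and 2.85 against 1.96 and 2.26. At chr4:40214331-40215670 the groups overlapped by fold, with 3.15 in knockout control above every parental value and 2.26 in knockout 2 h.

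Further along, chr4:40233069-40233506 had a relative pileup of 39.0, 38.6 and 34.6 in the parental libraries against 15.5 and 21.1 in knockout control and 2 h. The peaks behind these values were 438, 3236 and 1117 bp wide against 1190 and 1092 bp, so they are not means over 1 common stretch. The widest region of the gene, chr4:40235982-40242349, had 74.5, 91.9 and 73.2 against 30.0 and 36.5. Its peaks differed in extent too, at 4122, 1886 and 4309 bp against 3129 and 4245 bp. The parental mean was 2.40 times the knockout mean there, and groups did not overlap by relative pileup. By fold the groups overlapped at this region, with 2.37, 3.02 and 2.42 in the parental libraries against 2.66 and 2.51. They also overlapped by fold at chr4:40233069-40233506, with 2.65 in knockout control above 2.31 in parental 4 h. Knockout 2 h lay below every parental fold there.

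Counted over fixed sites, joined from the top 15000 peaks per library with knockout 4 h left out, the locus held 20. A site was called when the 3 parental values and the 2 knockout values did not overlap and their means were at least 1.5-fold apart. Of the 20, 4 were called higher in parental cells, against 4.72% of 17858 sites over the genome, and 0 were called higher in knockout cells, against 4.36%. All 4 are the regions just given. Each of the 4 entered the site set through parental peaks alone, with no peak among the top 15000 of knockout control or 2 h, so the filter favoured this direction and the count is no support for a difference. Of sites over the genome that entered in that way, 26.8% were called higher in parental cells, and 4 of 6 in the locus. Of the 14 sites of the locus with such peaks in both genotypes, 0 were called in either direction, against 1.86% higher in parental and 2.86% higher in knockout cells over the genome. Over all sites the median ratio of parental to knockout means was 1.12, and over the 20 sites of the locus it was 1.15. No p-value belongs to these counts, since the locus was chosen with results of these lists known.

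Knockout 4 h could not be placed in this count. None of the 4 sites had a single solution there, so with that library added 12 sites of the locus were left and 0 were called. Its deposited peak at chr4:40208513-40209494 had a fold of 2.17 and rank 84404, outside the top peaks. Its peak at chr4:40238863-40240227 had a fold of 3.39 and rank 19829, inside it. Ranked by p over the fixed sites, chr4:40235982-40242349 stood at 12416 in knockout 4 h, among the parental places of 13579, 9133 and 12909 and ahead of 16807 and 16657 in knockout control and 2 h. At the other 3 sites knockout 4 h stood behind every parental place, at 17408 for chr4:40208441-40209601, 17952 for chr4:40214331-40215670 and 17857 for chr4:40233069-40233506. Knockout control and 2 h stood there at 17860 and 15779, 17408 and 18563, and 18058 and 18158. In the thin library the part of depth in these places cannot be told apart. Over the genome, 15.2% of sites stood more than 3000 places higher in knockout 4 h than in its control, and 16.1% lower.

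**Figure D3:**
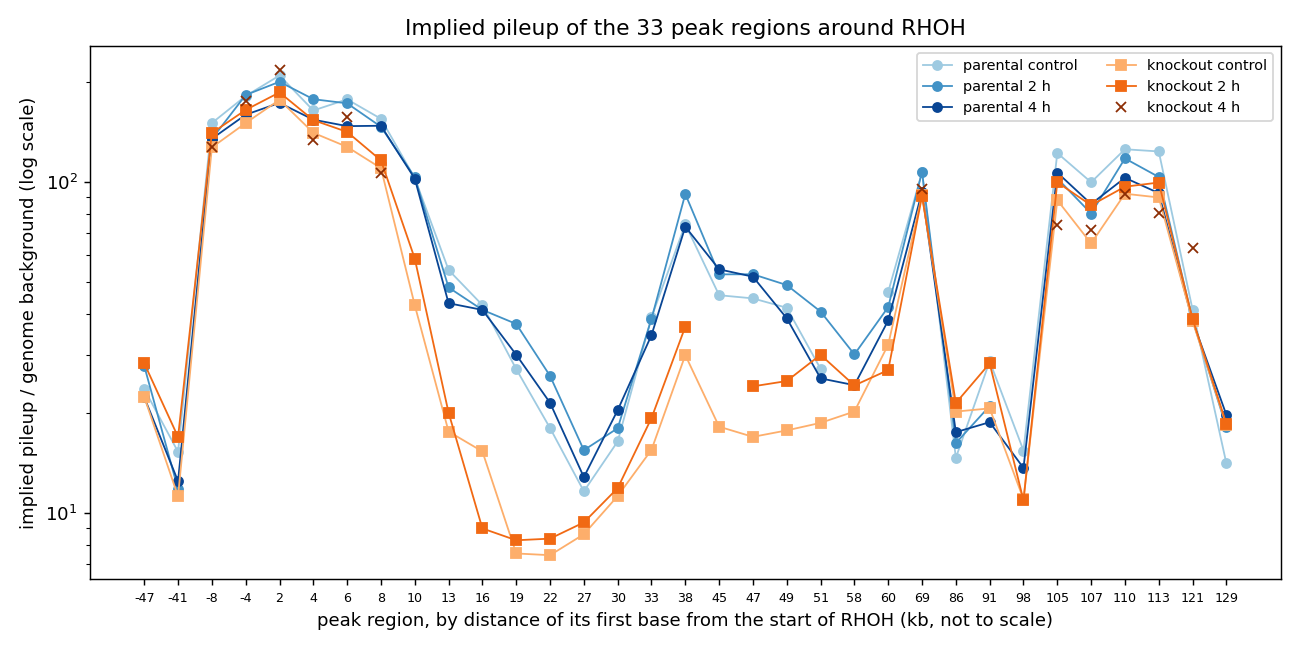
Implied pileup over the genome background (log scale) of the 33 merged peak regions, in order of distance from the start of RHOH in kb, for each library; knockout 4 h is shown as crosses where it has a single solution. Parental and knockout lines run close together at the start of the gene and in the far cluster and apart from 10 kb to 49 kb.

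Merging all top peaks of the 6 libraries gave 33 regions, of which 14 were marked by top peaks of every library. From 40211061 to 40250460 there were 12 regions, the last of which began past the end of the gene, and 11 had a value in all 5 libraries. In these 11 the ratio of the parental mean to that of knockout control and 2 h ran from 1.28 to 3.99, with a median of 2.40. Over all fixed sites the median was 1.12, with quartiles of 0.98 and 1.23. Several regions entered the list only through parental peaks, so these ratios do not support a difference. The smallest ratio was at chr4:40249165-40250460, where groups overlapped, with 27.2, 40.6 and 25.5 against 18.7 and 30.0. At chr4:40225201-40225783 the values were 11.6, 15.5 and 12.8 against 8.62 and 9.36. At chr4:40217245-40218209 the values were 27.2, 37.2 and 30.0 against 7.54 and 8.26. In the opposite direction, chr4:40283793-40287541 had 14.7, 16.2 and 17.5 in parental cells against 20.2 and 21.5 in knockout cells.

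Covered length in the same stretch changed with the peaks used. In the 40 kb from 40210001 to 40250000 the top peaks covered 9964, 15038 and 16643 bp in the parental libraries, and 6300, 7587 and 1365 bp in the knockout libraries. With all deposited peaks the values were 16932, 16558 and 19420 bp against 14107, 17625 and 8297 bp. By top peaks each parental library had more cover than each knockout library, while with all deposited peaks knockout 2 h had more than parental control and 2 h.

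The comparison of knockout control with parental control came to -4502 bp over the locus by top peaks and 69 bp with all deposited peaks, so its direction rests on the peaks used. Of 14 windows of 10 kb with top peaks in either library, of 18 in the locus, 1 was higher in knockout control by at least 1000 bp, against 5.25% of marked windows over the genome, and 4 were lower, against 5.08%. Such shares, here and below, are of all marked windows whatever their cover, while the locus was picked for dense cover. By rank over the fixed sites, 1 of 20 stood more than 3000 places higher in knockout control, against 7.63% of all sites, and 5 stood lower, against 7.35%. These 5 included chr4:40208441-40209601, chr4:40233069-40233506 and chr4:40235982-40242349, which entered the site set through parental peaks alone. The filter favoured this direction there, so the count is no support for a difference. When sites were ranked by their largest fold, 1 stood lower, against 9.33% of all sites. The largest fall was from place 10097 to 17860 at chr4:40208441-40209601.

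Camptothecin was compared with DMSO within each genotype, and the 2 h and 4 h comparisons share their control library. In parental cells the cover by top peaks of the locus was 3989 bp larger at 2 h and 8544 bp larger at 4 h. With all deposited peaks the differences were -4508 and -723 bp, so neither direction held. At 2 h, 4 of 13 marked windows were higher, against 2.83% of marked windows, and 2 lower, against 7.81%. At 4 h, 4 of 14 were higher, against 3.31%, and 2 lower, against 6.17%. As above, these are not shares of windows with like cover, so they do not show an excess of change at the locus.

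In knockout cells the cover by top peaks was 5613 bp larger at 2 h, and at 4 h, in the thin library, the difference was -15015 bp. At 2 h, 4 of 14 marked windows were higher, against 5.42% of marked windows, and 1 lower, against 4.09%. At 4 h, 1 of 14 was higher, against 2.23%, and 9 lower, against 14.6%. With all deposited peaks the difference at 2 h was 1161 bp.

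**Figure D4:**
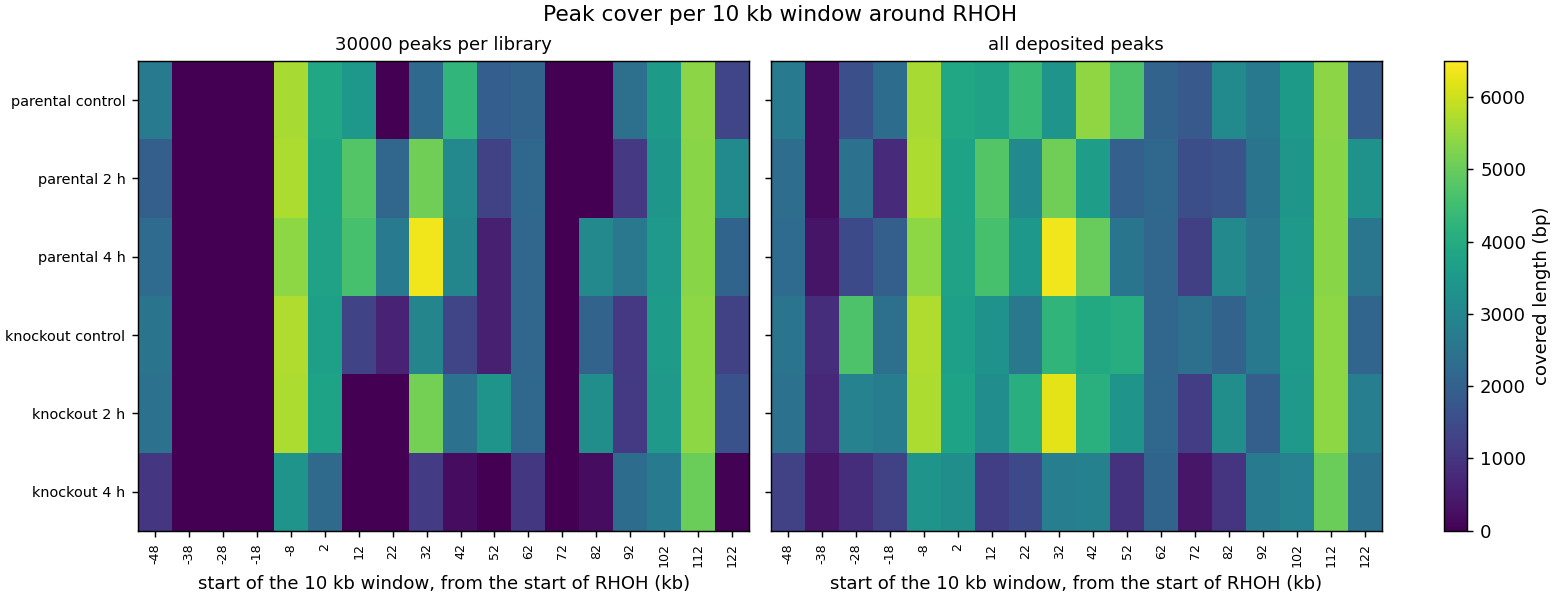
Covered length in bp of the 18 windows of 10 kb, by their distance from the start of RHOH in kb, for 30000 peaks per library and for all deposited peaks. The windows at -8, 2, 102 and 112 kb are alike in 5 libraries and both panels, and those from 12 to 42 kb change with the peaks used.

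The window with the most cover in any library was chr4:40230001-40240000, near the far end of the gene. It held 2211, 5086 and 6371 bp of top peaks in the parental libraries, and 2954, 5151 and 1138 bp in the knockout libraries. By top peaks, cover was larger after camptothecin in both genotypes at 2 h, and knockout control exceeded parental control by 743 bp. With the 15000 strongest peaks the parental difference at 2 h was -361 bp. The parental difference at 4 h was -1773 bp where −log10 q reached 5 or more. Under these choices knockout control minus parental control was -2211 and -1773 bp. The knockout difference at 2 h was 0 bp in both.

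Of the 4160 bp added in parental 4 h, 2246 bp lay in the region chr4:40235982-40242349 and 1914 bp in chr4:40230993-40234228. In the latter, parental control had a further peak, chr4:40230955-40232096, at rank 37206 and so outside its top peaks. In the former, the parental control peak ran over chr4:40238228-40242349, mostly into the next window, while in parental 4 h the peak ran over chr4:40235982-40240290. The next window held 4279 bp in parental control and 2972 bp in parental 4 h. The relative pileup of the former region was 74.5 and 73.2 in these libraries, a ratio of 0.98. These are means over peaks of different extent, so they cannot show whether pileup rose where cover was added at 4 h.

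**Figure D5:**
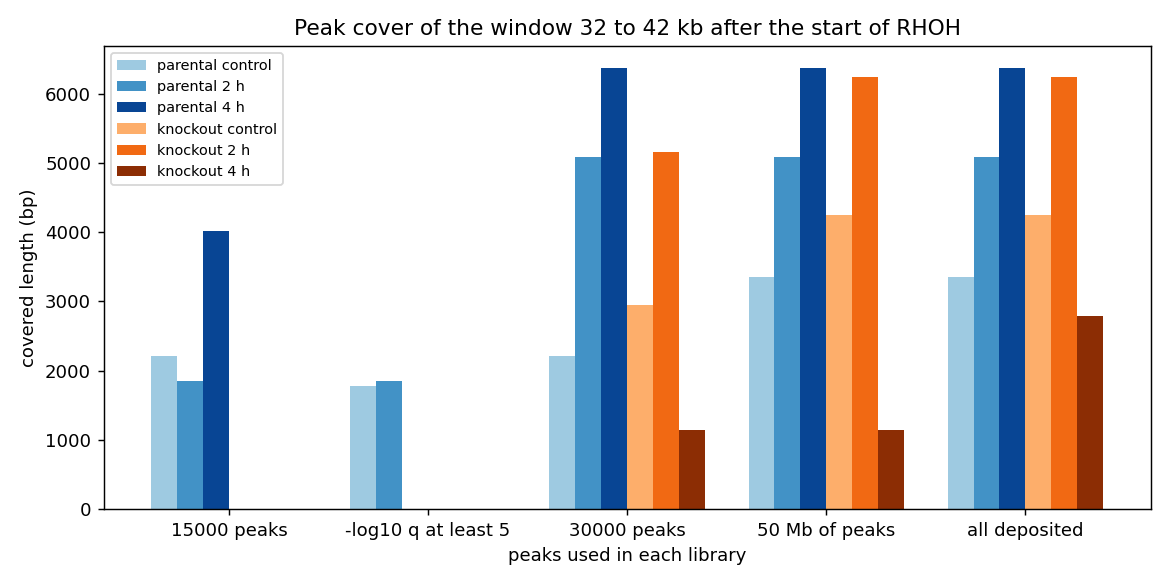
Covered length in bp of the window from 32 to 42 kb after the start of RHOH, as bars for the 6 libraries under 5 choices of peaks. The order of the libraries changes between choices, and parental 4 h is at 0 with the strictest one.

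By likeness of cover by top peaks over the 6 libraries, the nearest windows elsewhere were chrX:2620001-2630000 at a Euclidean distance of 2639 bp, chr16:15240001-15250000 at 2732 bp, chr12:48210001-48220000 at 2949 bp, chr7:5490001-5500000 at 3003 bp and chr6:14780001-14790000 at 3076 bp. The first held 3789, 4221 and 6126 bp in the parental libraries and 4074, 4193 and 2360 bp in the knockout libraries. These distances are larger than the cover of the RHOH window in parental control.

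Relative pileup of the treated libraries was set against their controls too. Over the 20 sites the median ratio to control was 0.96 at 2 h and 0.88 at 4 h in parental cells, where all sites had 1.03 and 1.04. Single sites ranged from 0.73 to 1.29 at 2 h and from 0.65 to 1.40 at 4 h. For knockout 2 h it was 1.10, with sites from 0.59 to 1.38, where all sites had 1.08. For knockout 4 h it was 1.02 over the 12 sites with a value, where all sites had 1.24. By rank, 1 site of 20 stood more than 3000 places higher and 1 lower in parental 2 h, against 8.79% and 8.1% of all sites. In parental 4 h these counts were 1 and 1, against 7.13% and 7.45%. In knockout 2 h they were 1 and 0, against 4.5% and 4.68%. For knockout 4 h they were 2 and 2, against 15.2% and 16.1%. These shares are near those of all sites.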

How the data were processed

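Each library came as its own list of broad peaks, on hg19, as the authors deposited it. Per the submitters' processing notes the tools included MACS2 2.1.2, beside BWA 0.7.17, Picard 2.9.2, SAMtools 1.8, Trimmomatic 0.39 and Trim Galore 0.6.2. Settings were not given in the sources used here, nor whether the control was input, IgG or none. The deposited fold is a ratio over local background, the deposited −log10 p and −log10 q are MACS2's, and the deposited score is within 1 of that −log10 q multiplied by 10 and truncated, used only as a check. No read counts were used.

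Python 3.11.15, numpy 2.4.6, pandas 2.3.3 and scipy 1.17.1 were used, and the code was tested on simulated data. Windows of 10 kb were tiled from position 1. Relative pileup solves fold as pileup plus 1 over background plus 1, with p as a Poisson tail. A peak had no value when its second solution was not under 0.9 of the genome background. With 1 library per group nothing was tested. Members, blocks and lists were chosen with earlier results of these data known. The rule for named items was RHOH, every locus peak among the top 30000 of a library, every marked window of the locus, and the 5 windows elsewhere most like its window with the most cover. The planned lists of T cell receptor genes, neighbours and cell type markers needed an annotation of hg19 and were not run.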

Additional observations from a re-analysis of the deposited data

Results flagged for a closer look

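In several places the 2 genotypes moved in opposite directions against their own DMSO control, in the length covered by the 30000 top peaks of each library. With 1 library per group these differences between genotypes were not tested. Over the whole locus at 4 h the difference was 8544 bp for parental cells and -15015 bp for knockout cells. In the window from 40210001 it came to 1292 bp for parental and -1329 bp for knockout cells at 2 h, and 1122 bp and -1329 bp at 4 h. In the window from 40240001 at 2 h it came to -1232 bp for parental and 1071 bp for knockout cells. In the window from 40230001 at 4 h it was 4160 bp and -1816 bp, and in the window from 40280001 at 4 h 3067 bp and -1860 bp. These signs rest in part on the peaks used. With all deposited peaks both values at 4 h were negative over the locus, -723 and -22166 bp, and from 40280001, -37 and -1096 bp. The windows from 40210001 and 40230001 kept opposite signs at 4 h. At 2 h the values were 1023 and -122 bp from 40210001, and -1799 and 175 bp from 40240001. With 15000 peaks per library both knockout values at 2 h were 0 bp. The background pileup of knockout 4 h was 0.168 against 0.699 in its control, and the part of depth in the 4 h values cannot be told apart.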

How the results depend on the processing

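No paired analysis was possible because each group has 1 library. The choice of peaks decided the cover results, and the cause was not tested. Parental 2 h minus control over the locus was -3266 bp with 15000 peaks per library, -5890 bp with 50 Mb of peaks, -3299 bp at a −log10 q from 5 and -4508 bp with all deposited peaks, against 3989 bp. Parental 4 h gave 3049, -1646, -5442 and -723 bp in that order, against 8544 bp. Knockout 2 h gave 2706, 3467, 2706 and 1161 bp, against 5613 bp. Knockout control minus parental control gave -8252 bp with 15000 peaks, -8911 bp with 50 Mb and 69 bp with all peaks, against -4502 bp. Knockout 4 h stayed lower throughout. In the window with the most cover, parental 2 h gave -361 bp with 15000 peaks and parental 4 h -1773 bp at a −log10 q from 5. Knockout control minus parental control gave -2211 and -1773 bp there under these choices, against 743 bp. Knockout 2 h gave 0 bp in both, against 2197 bp.

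Counts of windows changed moved as follows. Parental 2 h had 1 higher with 15000 peaks, against 2.06% of marked windows over the genome. At a −log10 q from 5 it had 0 higher, against 1.27%, and 1 lower, against 8.43%. It had 5 lower with 50 Mb and with all peaks, against 6.06% and 7.71%. From 500 bp it had 4 lower, against 15.7%. Parental 4 h had 1 higher with 50 Mb, against 5.07%, and 0 at a −log10 q from 5, against 2.17%. With all peaks it had 1 higher, against 8.16%, and 1 lower, against 7.01%. On a grid moved by 5 kb it had 1 lower, against 6.22%. Knockout 2 h had 2 higher and 0 lower with 15000 peaks, against 3.97% and 3.36%. The same counts at a −log10 q from 5 stood against 5.26% and 2.38%. It had 2 lower with all peaks and from 500 bp, against 12.4% and 10.6%. On the moved grid it had 0 lower, against 4.16%. Knockout 4 h had 0 higher under all 4 peak choices, against 0.0378% to 6.79%. It had 4 lower with 15000 peaks, against 16.5%, and 5 at a −log10 q from 5, against 41.0%. Knockout control against parental control had 2 higher on the moved grid, against 5.31%, and 3 from 500 bp, against 12.7%.

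Counts of sites that changed place were 0 in every comparison with sites from the 10000 strongest peaks, where the locus held 11 sites. The shares over all such sites were 1.40% to 7.14%. Ranked by largest fold, 0 were stronger in parental 2 h, against 11.3% of all sites, and 2 in parental 4 h, against 9.72%. In knockout 2 h, 0 were stronger, against 8.22%, and 1 weaker, against 7.80%. In knockout 4 h, 9 were stronger, against 26.8%, and 1 weaker, against 22.9%. For knockout control against parental control, 1 was weaker, against 9.33%. The count of 4 sites higher in parental cells was 0 with knockout 4 h, which has no value at those sites, against 0.193% of all sites. It was 0 of 14 among sites with a peak in the top 15000 of both genotypes, against 1.86%. With the controls only or 2 h only it was 5, against 7.46% and 9.69%. These settings and a 2-fold difference were chosen after seeing the data.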
